A study of Mus musculus with 12 samples.

Results

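The KEAP1-NRF2 pathway and its classic target genes were followed in lung alveolar type 2 (AT2) cells, the surfactant-secreting progenitor cells of the alveolus. The 10 genes were matched by symbol in a table of 21878 genes, and all 10 were found: Nfe2l2, Keap1, Mafg, Nqo1, Hmox1, Gclc, Gclm, Txnrd1, Srxn1 and Slc7a11. They were read in 12 libraries of C57BL/6 mouse cells, which fall into 4 groups of 3. AT2-PBS and AT2-BLM are cells of Atg5f/f mice, labelled wild type, in which both copies of the autophagy gene Atg5 are floxed but no Cre is present, treated with PBS or with bleomycin (BLM). The groups named Atg5-/- AT2-PBS and, after injury, Atg5-/- AT2-BLM are cells of Nkx2.1Cre;Atg5f/f mice with the same treatments. BLM is a DNA-cleaving drug that injures the lung epithelium. It was given into the trachea at 2 U/kg to male mice of 8 to 12 weeks, and the surviving AT2 cells were taken at day 14. The methods read here give no day for Atg5-/- AT2-PBS. Nkx2.1Cre acts in the lung epithelium from development onwards, so the deletion covers airway as well as alveolar epithelium and precedes the injury.

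AT2 cells were obtained by sorting for EpCAM+ cells negative for CD31, CD34, CD45, CD24 and Sca-1, and the libraries were read as FPKM, fragments scaled to transcript length and library total, which allows levels of different genes to be set side by side per length. Surfactant genes were abundant in every library, with Sftpa1 between 4967 and 13567 FPKM. Sftpc, the defining AT2 gene, was listed at 0 in 11 of the 12 libraries and at 112570 FPKM in AT2-BLM replicate 2, where it made up 20.5% of the FPKM sum of that library. An exact 0 in a table without counts can be a failed estimate, so neither the zeros nor the single value are read as levels of Sftpc here. All 5 genes called in the first comparison below were also called without AT2-BLM replicate 2. Leukocyte and macrophage markers stood apart in 1 group: 16 such genes summed to between 1995 and 2178 FPKM in Atg5-/- AT2-PBS and to no more than 712 FPKM in any other library. Airway markers did the same, with 5 genes summing to between 23132 and 84645 FPKM in Atg5-/- AT2-PBS against at most 11756 FPKM elsewhere, most of it Scgb1a1. Atg5 itself was listed at 6.01 to 12.5 FPKM in Atg5f/f cells and at 6.72 to 10.1 FPKM in Atg5-/- cells. A value for the whole gene also counts transcripts that lack only the deleted exon, so it does not check the genotype.

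NRF2, the protein of Nfe2l2, is a transcription factor of the cap'n'collar family. In unstressed cells KEAP1 binds it in the cytoplasm and presents it to a CUL3 ubiquitin ligase for destruction. Electrophiles and oxidants modify cysteines of KEAP1, NRF2 then builds up in the nucleus, pairs with a small MAF protein such as MAFG and binds antioxidant response elements of genes for glutathione synthesis, thioredoxin reduction, quinone reduction and heme breakdown. The autophagy receptor p62, encoded by Sqstm1, can hold KEAP1 away from NRF2. p62 is itself removed by autophagy, which is how the pathway is tied to Atg5. Most of this control acts on protein, so mRNA levels show the targets of the pathway more directly than its regulators.

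The core of the antioxidant response element is written TGACNNNGC, and a variant core bound by the same protein family is TGAGNNNGC. Both were searched on both strands in the 250 bases before each gene's start in RefSeq promoters of GRCm38.p6. A promoter was at hand for 8 of the 10 genes (Nfe2l2, Keap1, Mafg, Nqo1, Gclm, Txnrd1, Srxn1 and Slc7a11), not for Hmox1 and Gclc. A core was found in 6 of these 8, all but Keap1 and Nqo1, and in 25.7% of 27025 genes searched in the same way (TGACNNNGC in 11.5% and TGAGNNNGC in 16.3%). The second core was added after the first had been searched. The stretches around the matches are shown because these are the genes whose levels are compared below; capitals mark the core, which reads in reverse complement where it ends in TCA. Each is given 5′ to 3′ along its gene.
Srxn1, chr2:152105341-152105512, plus strand: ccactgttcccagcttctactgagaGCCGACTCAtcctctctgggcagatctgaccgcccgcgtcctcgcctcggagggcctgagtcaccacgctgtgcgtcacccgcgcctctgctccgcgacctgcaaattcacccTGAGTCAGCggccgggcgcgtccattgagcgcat
Txnrd1, chr10:82859089-82859147, plus strand: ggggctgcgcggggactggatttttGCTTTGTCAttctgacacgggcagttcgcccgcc
Nfe2l2, chr2:75704870-75704913, minus strand: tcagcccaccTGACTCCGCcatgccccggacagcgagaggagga
Gclm, chr3:122245398-122245456, plus strand: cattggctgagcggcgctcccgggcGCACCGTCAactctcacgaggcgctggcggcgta
Mafg, chr11:120633736-120633794, minus strand: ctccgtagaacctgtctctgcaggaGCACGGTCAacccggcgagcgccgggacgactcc
Slc7a11, chr3:50443677-50443735, minus strand: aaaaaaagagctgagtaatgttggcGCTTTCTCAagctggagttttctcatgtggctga

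Srxn1 was the only one of the 8 with 2 cores in its window, starting 158 and 45 bases before its start. The nearer core shares 7 bases with a match to the AP-1 site TGACTCA on the other strand, and a second AP-1 match lies 102 bases before the start. AP-1 matches were found in 5.16% of genes and in no other of the 8. These are matches of letters, not measured binding.

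The 10 genes differed widely in level. Averaged over the 12 libraries, Nfe2l2 was the highest at 132 FPKM, followed by Hmox1 at 75.8, Srxn1 at 47.4, Gclc at 41.7, Txnrd1 at 41.1, Keap1 at 16.8, Nqo1 at 12.9, Gclm at 8.26, Mafg at 3.16 and Slc7a11 at 0.182 FPKM. Slc7a11 did not reach 1 FPKM in any library and was not tested, so 9 of the 10 genes were among the 10675 tested. A gene is called changed below when limma on log2(FPKM + 1) gives it p under 0.05 before adjustment and its fold is 1.4 or more, the criterion of the study, and the Benjamini-Hochberg adjusted p over all tested genes stands beside it. In these bulk samples fewer cells of a type and less RNA per cell cannot be told apart.

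**Figure D1:**
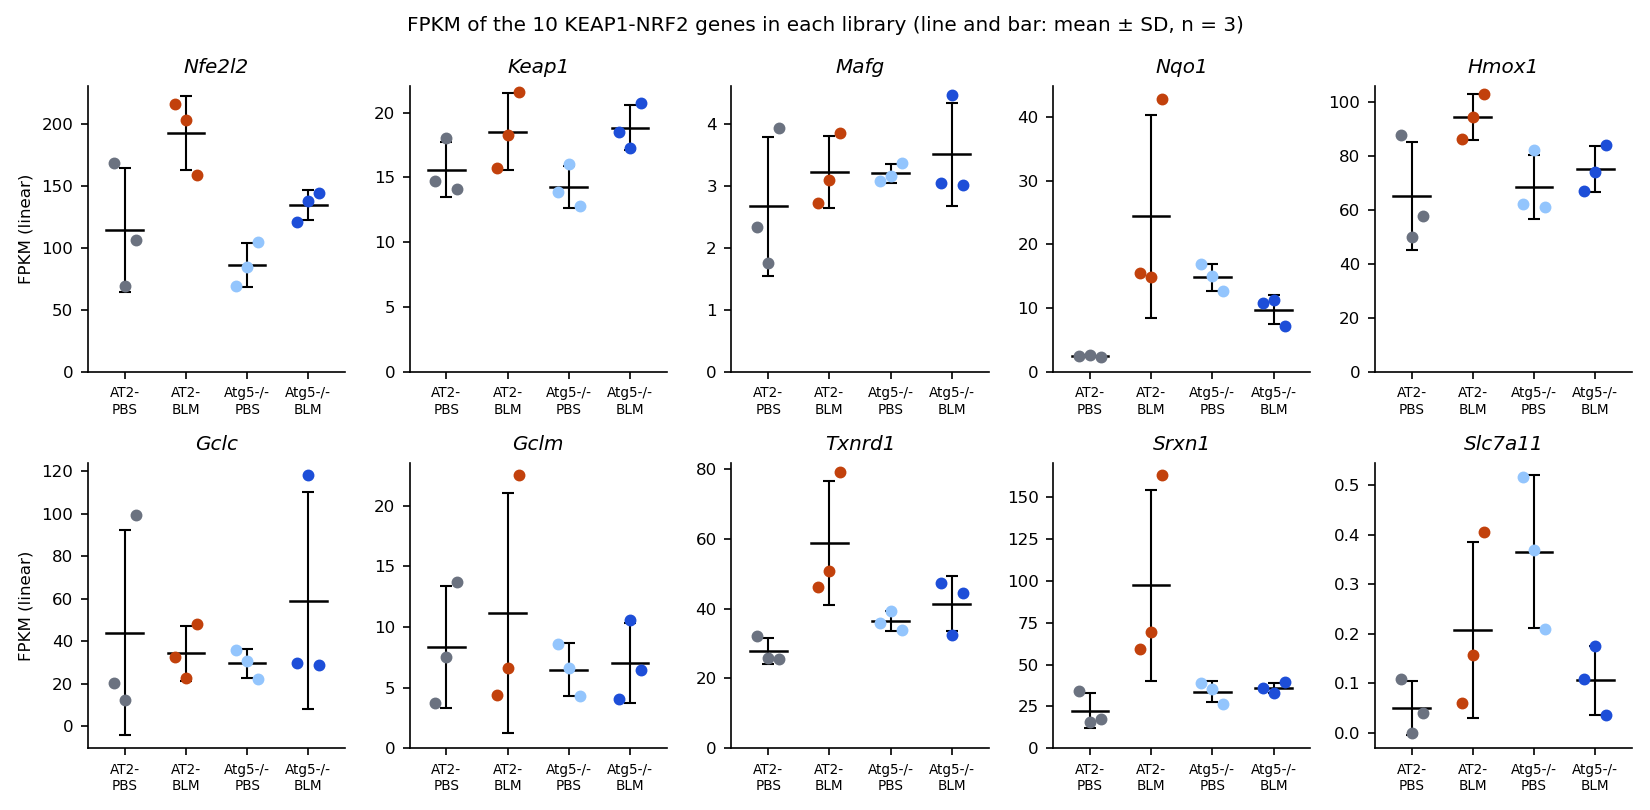
FPKM (linear axis) of the 10 genes in each of the 12 libraries, by group, with the mean and SD of 3 libraries as line and bar. Nqo1 sat between 2.26 and 2.7 FPKM in AT2-PBS and above 7 FPKM in every other library, while Gclc had 1 library far above the rest in AT2-PBS and 1 in Atg5-/- AT2-BLM.

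The first comparison, AT2-BLM against AT2-PBS, asks which of these genes differ in surviving AT2 cells with intact Atg5 after injury. Nqo1, Srxn1, Txnrd1, Nfe2l2 and Hmox1 were called higher, 5 of the 9 tested, and none was called lower. Of all tested genes, 20.6% were called higher and 7.77% lower. Nqo1, Srxn1 and Txnrd1 also passed an adjusted p under 0.05, as did 13.4% of all genes in the higher direction. All 9 log2 fold changes were above 0, with a median of 0.56 against 0.17 for all tested genes. That background shift rests on the scaling: after quantile normalization the median of all genes was -0.0153, and the share of all calls in the higher direction went from 72.6% to 46.9%.

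Nqo1, which encodes a quinone reductase that reduces quinones to hydroquinones in a single step (mm9 chr8:109912125-109927106, minus strand), changed most. It was at 2.46, 2.7 and 2.26 FPKM in AT2-PBS and at 15.5, 14.9 and 42.8 FPKM in AT2-BLM. All 3 injured libraries stood far above the 3 controls, and replicate 3 was well above the others. The log2 fold change was 2.70 ± 0.328 (SE), a fold of 6.51 on the log2(FPKM + 1) scale (limma adjusted p = 0.000843), and it was 2.23 without AT2-BLM replicate 3.

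Srxn1 encodes sulfiredoxin, which repairs over-oxidized peroxiredoxins (mm9 chr2:151931252-151937112, plus strand). Its levels were 34.3, 15.7 and 17.5 FPKM in AT2-PBS and 59.2, 69.3 and 163 FPKM in AT2-BLM. The groups did not overlap, and AT2-BLM replicate 3 was again the highest. Srxn1 rose by a log2 fold change of 2.00 ± 0.355 (limma adjusted p = 0.00429), or 1.55 without that library.

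Txnrd1, the cytosolic thioredoxin reductase (mm9 chr10:82296696-82360469, plus strand), was at 32.1, 25.9 and 25.5 FPKM in AT2-PBS and at 46.3, 50.8 and 79.1 FPKM in AT2-BLM. Here too every injured library lay above every control. The log2 fold change was 1.02 ± 0.207 (limma adjusted p = 0.00796), and it was 0.79 without AT2-BLM replicate 3.

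Nfe2l2 mRNA, encoding the pathway's transcription factor (mm9 chr2:75513570-75542698, minus strand), was at 168, 69.1 and 106 FPKM in AT2-PBS and at 216, 203 and 159 FPKM in AT2-BLM. The highest control lay above the lowest injured library, so the groups overlapped. The log2 fold change of 0.83 ± 0.27 met the criterion but not the adjusted threshold (limma adjusted p = 0.053). It was no longer called without AT2-PBS replicate 2, the lowest control, where it was 0.52, or after scaling each library to its level of the epithelial gene Cdh1, where it was 0.59.

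Hmox1 encodes heme oxygenase 1, which opens heme into biliverdin, iron and carbon monoxide (mm9 chr8:77617490-77624495, plus strand). It was at 87.6, 50 and 57.8 FPKM in AT2-PBS and at 86.1, 94.4 and 103 FPKM in AT2-BLM. Control replicate 1 was above the lowest injured library, and the other controls were lower. The log2 fold change was 0.56 ± 0.2 (limma adjusted p = 0.0706). The call was lost under quantile normalization, median-ratio scaling and scaling to Cdh1, and without AT2-PBS replicate 2 or replicate 3.

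The remaining genes were not called. Keap1, the substrate adaptor that marks NRF2 for destruction, was at 14.7, 18 and 14.1 FPKM in AT2-PBS and at 15.7, 18.3 and 21.6 FPKM in AT2-BLM, overlapping ranges with a log2 fold change of 0.23 ± 0.159. Mafg, a small MAF partner of NRF2, had the lowest level of those tested, at 2.34, 1.76 and 3.93 FPKM in AT2-PBS and 2.73, 3.09 and 3.86 FPKM in AT2-BLM, with a log2 fold change of 0.23 ± 0.226. Its gene overlaps Sirt7 on the same strand in the mm9 annotation, and how reads of the overlap were assigned is not given in the sources used here. Keap1 and Gclm each overlap a predicted gene on the opposite strand, Gm16754 and Gm17494, and whether strand was used in counting is likewise not given.

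Gclc and Gclm encode the catalytic and modifier subunits of glutamate-cysteine ligase, which makes the first bond of glutathione. Gclc was at 20.3, 12.1 and 99.6 FPKM in AT2-PBS and at 32.4, 22.5 and 48.2 FPKM in AT2-BLM. The single control library at 99.6 FPKM was higher than every injured one, and the other controls were lower than every injured one. The log2 fold change was 0.15 ± 0.678 with all libraries, 1.02 without AT2-PBS replicate 3 and -0.45 without AT2-PBS replicate 2. Gclm was at 3.74, 7.5 and 13.7 FPKM in AT2-PBS and at 4.42, 6.58 and 22.5 FPKM in AT2-BLM. Its groups overlapped over most of their range, with a log2 fold change of 0.24 ± 0.535 that turned to -0.39 without AT2-BLM replicate 3. Slc7a11, the cystine-importing subunit of system xc-, was at 0.108, 0 and 0.0406 FPKM in AT2-PBS and at 0.0604, 0.157 and 0.406 FPKM in AT2-BLM, too low to compare.

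**Figure D2:**
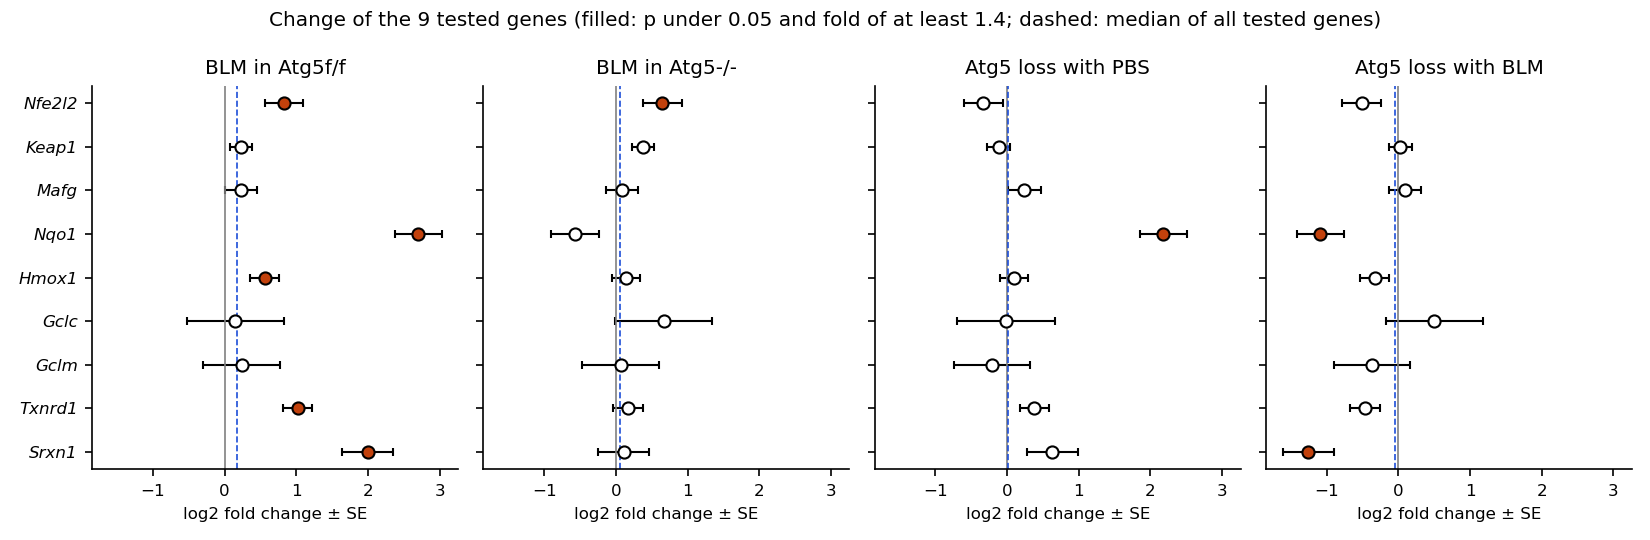
Log2 fold change with its standard error for the 9 tested genes in the 4 comparisons between groups. Filled points meet the criterion and the dashed line marks the median of all tested genes, and Nqo1 is filled in 3 of the 4 panels, higher in 2 and lower in 1.

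The second comparison puts the same treatment in Atg5-/- cells, Atg5-/- AT2-BLM against Atg5-/- AT2-PBS. Of the 9 tested genes only Nfe2l2 was called, and it was higher. Over all genes 7.66% were called higher and 10.7% lower, so that 41.7% of the calls were higher, or 4.6% after scaling to Cdh1. The median log2 fold change of the 9 was 0.14 against 0.0633 for all tested genes. Nfe2l2 went from 68.9, 84.5 and 105 FPKM to 121, 138 and 144 FPKM, without overlap, by a log2 fold change of 0.65 ± 0.27 (limma adjusted p = 0.18). The call was kept in 8 of 15 alternative settings, and it was lost under median-ratio and Cdh1 scaling. It was also lost without Atg5-/- AT2-PBS replicate 1 or 2 and without Atg5-/- AT2-BLM replicate 2 or 3. Leaving out AT2-PBS replicate 3 and Atg5-/- AT2-BLM replicate 2 together lost it as well.

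Nqo1, Srxn1 and Txnrd1, the genes with the largest BLM effect in Atg5f/f cells, were not called here. Nqo1 went from 16.9, 15 and 12.6 FPKM in Atg5-/- cells with PBS to 10.8, 11.3 and 7.16 FPKM with BLM. Every BLM library lay below every PBS library, and the log2 fold change of -0.57 ± 0.328 was not called (limma adjusted p = 0.353). It was called lower in 2 of 15 alternative settings, at -1.0 after scaling to Cdh1 and at -0.57 in a fit of the compared groups alone. Markers of other cells were called lower with BLM in Atg5-/- cells, 15 of 16 for leukocytes and macrophages and 4 of 4 for airway. So were 5 of 5 for fibroblasts and 4 of 6 for liver. AT1 markers went the other way from Nqo1, called higher for 4 of 5, and AT2 markers were called higher for 2 of 10. The part of all these cells in the Nqo1 value was not tested. Srxn1 was at 39, 35.5 and 26.7 FPKM with PBS and at 35.7, 33.2 and 39.4 FPKM with BLM, a log2 fold change of 0.11 ± 0.355 over overlapping ranges. Txnrd1 was at 35.9, 39.4 and 33.8 FPKM with PBS and at 47.3, 32.5 and 44.5 FPKM with BLM. A single low BLM library made these ranges overlap, and the log2 fold change was 0.17 ± 0.207.

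Keap1 went from 13.9, 16 and 12.8 FPKM with PBS to 18.5, 17.3 and 20.7 FPKM with BLM. Its ranges did not overlap, but its fold of 1.3 was under the minimum of 1.4 (limma adjusted p = 0.184). Hmox1 was at 62.2, 82 and 61.2 FPKM with PBS and at 67.1, 73.9 and 84.2 FPKM with BLM, with a log2 fold change of 0.14 ± 0.2. Gclc was at 35.7, 30.8 and 22.3 FPKM with PBS and at 29.9, 118 and 29 FPKM with BLM. The value of 118 FPKM in Atg5-/- AT2-BLM replicate 2 was the highest Gclc value of all 12 libraries, and without it the log2 fold change fell from 0.67 to 0.0189. Gclm and Mafg had overlapping ranges, with Gclm between 4.1 and 10.6 FPKM and Mafg between 3.02 and 4.47 FPKM in these 6 libraries. Slc7a11 was at 0.518, 0.37 and 0.21 FPKM with PBS and at 0.108, 0.175 and 0.0356 FPKM with BLM, lower in every BLM library but under 1 FPKM throughout.

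The difference between the BLM effects of both genotypes was tested directly as an interaction. Nqo1, Srxn1 and Txnrd1 were called, all with a smaller BLM effect in Atg5-/- cells. Of all genes 15.2% were called in that direction and 5.02% in the other, and the share of calls above 0 was 24.9%, or 54.8% after quantile normalization. Nqo1 differed by -3.27 ± 0.464 on the log2 scale (limma adjusted p = 0.00217) and Srxn1 by -1.89 ± 0.502 (limma adjusted p = 0.0396), with 7.11% of all genes below 0 at an adjusted p under 0.05. Txnrd1 differed by -0.85 ± 0.293 (limma adjusted p = 0.109). The calls of Nqo1 and Srxn1 were made in 20 of 20 alternative settings and that of Txnrd1 in 19 of 20. The adjusted p of Nqo1 stayed under 0.05 in all 20 (0.00102 to 0.0128), and that of Srxn1 in 8 (0.0114 to 0.112). For Nfe2l2 the interaction was -0.18 ± 0.382, which does not show that its BLM effect was the same in both genotypes. Markers of other cells were called below 0 here too, 16 of 16 for leukocytes and macrophages and 6 of 6 for liver. So were 5 of 5 for fibroblasts, 3 of 5 for AT1 and 2 of 4 for airway. AT2 markers were called above 0 for 3 of 10 and below for 1. The part of all these cells in the interaction values was not tested.

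**Figure D3:**
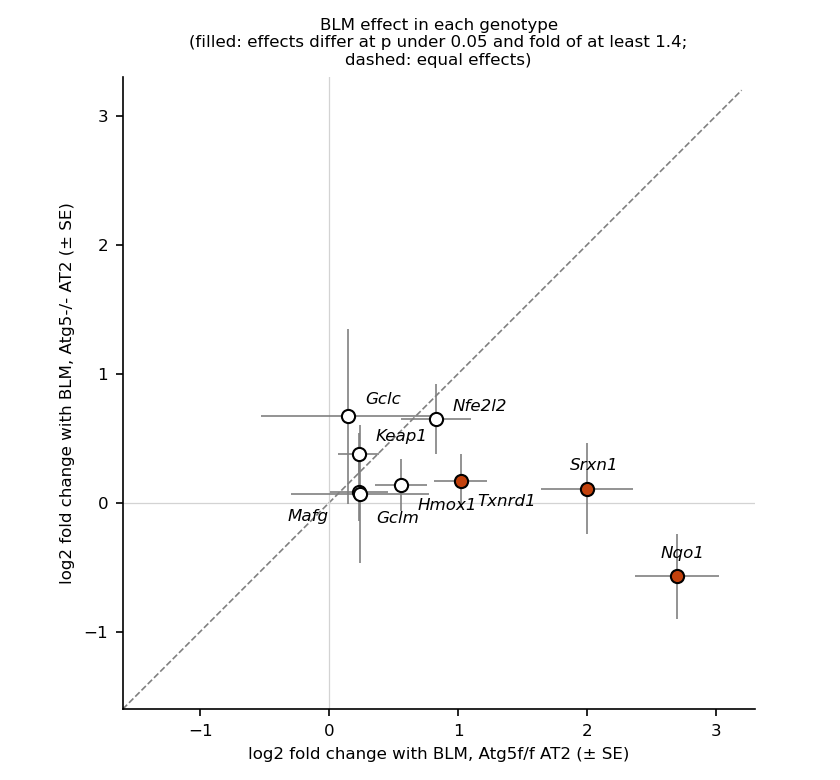
Log2 fold change with BLM in Atg5f/f cells (horizontal) and in Atg5-/- cells (vertical) for the 9 tested genes, with standard errors. Filled points are genes whose effects differed in the interaction test, and these 3, Nqo1, Srxn1 and Txnrd1, lie farthest below the dashed line of equal effects.

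The interaction joins 2 differences between the genotypes, one with PBS and one with BLM. With PBS, Atg5-/- AT2-PBS against AT2-PBS compares the genotypes without BLM. Besides Atg5, these groups differ in the presence of Nkx2.1Cre and in markers of other cells, given below, and the part of each was not tested. Nqo1 was called higher, at 12.6 to 16.9 FPKM against 2.26 to 2.7 FPKM, a log2 fold change of 2.18 ± 0.328 (limma adjusted p = 0.000709). It was 1 of 9, while 14.1% of all genes were called higher and 5.16% lower, and 9.92% were higher at an adjusted p under 0.05. The higher share of all calls was 73.2%, against 42.6% after quantile normalization and 97.2% after scaling to Cdh1. Every Atg5-/- library was above every Atg5f/f library for Nqo1, and the adjusted p stayed under 0.05 in 15 of 15 alternative settings. The Atg5-/- AT2-PBS values reached the level of the lower AT2-BLM libraries.

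Txnrd1 in Atg5-/- AT2-PBS, at 33.8 to 39.4 FPKM, also lay wholly above AT2-PBS, at 25.5 to 32.1 FPKM, but its log2 fold change of 0.38 ± 0.207 was not called (limma adjusted p = 0.32). Srxn1 overlapped between these groups, since AT2-PBS replicate 1 at 34.3 FPKM was higher than Atg5-/- AT2-PBS replicate 3 at 26.7 FPKM, and its log2 fold change was 0.63 ± 0.355. Both were called higher after scaling to Cdh1, at 0.77 for Txnrd1 and 1.02 for Srxn1, and Srxn1 also without AT2-PBS replicate 1, at 0.97. Nfe2l2 had a log2 fold change of -0.33 ± 0.27, Keap1 of -0.12 ± 0.159, Hmox1 of 0.0979 ± 0.2 and Gclc of -0.0152 ± 0.678, none called. Without AT2-PBS replicate 2, Nfe2l2 was called lower, at -0.65. Slc7a11 in Atg5-/- AT2-PBS, at 0.21 to 0.518 FPKM, was above the highest AT2-PBS value of 0.108 FPKM in all 3 libraries.

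Markers of AT2 cells and of other cells moved with this comparison. AT2 markers were called lower for 4 of 10 tested and higher for 1. All 16 leukocyte and macrophage markers were called higher in Atg5-/- AT2-PBS than in AT2-PBS, where their sum was 57.5 to 168 FPKM. The leukocyte gene Ptprc, encoding the CD45 protein that the sort selects against, was at 7.54 to 8.46 FPKM in Atg5-/- AT2-PBS and at 0.0119 to 0.621 FPKM in AT2-PBS. Airway markers were called higher for 3 of 4 tested, liver markers for 6 of 6 and fibroblast markers for 5 of 5. None of the 16 leukocyte markers was at 0 in all 3 libraries of a group, and the part of these cells in the Nqo1 value was not tested. In the BLM comparison of Atg5f/f cells the airway markers went the other way from Nqo1: their sum was 4959 to 11756 FPKM in AT2-PBS and 881 to 4967 FPKM in AT2-BLM, with 4 of 4 called lower. Liver markers were called higher there for 5 of 6 and AT1 markers for 3 of 5, the same direction as Nqo1. Leukocyte markers were called higher for 9 of 16 and lower for 1, and AT2 markers higher for 1 of 10 and lower for 2. The part of all these cells in that result was not tested either.

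**Figure D4:**
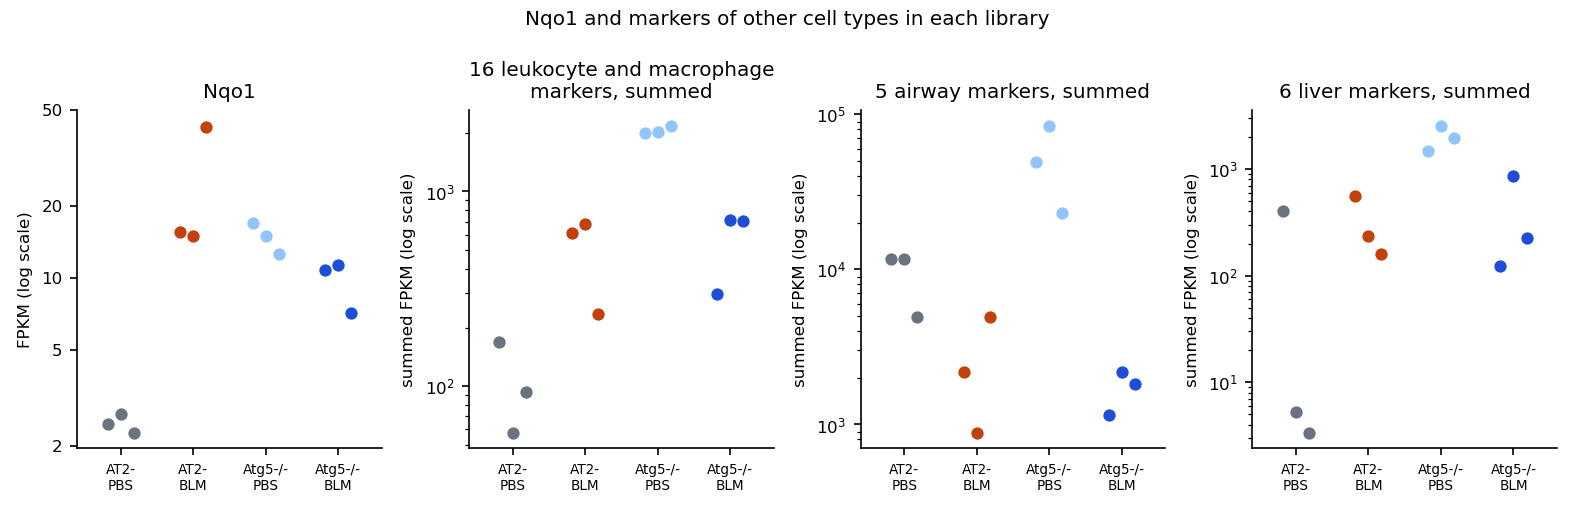
FPKM of Nqo1 and the summed FPKM of leukocyte and macrophage, airway and liver markers in each library (log axes). The 3 Atg5-/- AT2-PBS libraries held the highest sums in all 3 marker panels, whereas Nqo1 was highest in AT2-BLM replicate 3.

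With BLM, Atg5-/- AT2-BLM against AT2-BLM, Nqo1 and Srxn1 were called lower, 2 of 9, beside 3.12% of all genes lower and 2.04% higher. Of all calls 39.6% were higher, and 79.6% after scaling to Cdh1. Nqo1 was at 7.16 to 11.3 FPKM in Atg5-/- cells and at 14.9 to 42.8 FPKM in Atg5f/f cells, without overlap, a log2 fold change of -1.09 ± 0.328. Srxn1 was at 33.2 to 39.4 FPKM against 59.2 to 163 FPKM, also without overlap, with -1.26 ± 0.355. Neither passed adjustment (limma adjusted p = 0.607 for both), and without AT2-BLM replicate 3 the values were -0.61 for Nqo1 and -0.81 for Srxn1. Both calls were made in 15 of 15 alternative settings. Summed leukocyte markers overlapped in this comparison, at 298 to 712 FPKM in Atg5-/- AT2-BLM and 236 to 677 FPKM in AT2-BLM, with 1 of 16 called higher. AT1 markers were called lower for 2 of 5, the same direction as Nqo1 and Srxn1, and fibroblast markers for 1 of 5. Airway markers were called higher for 1 of 4, and no AT2 or liver marker was called. The part of these cells in the Nqo1 and Srxn1 values was not tested.

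Nfe2l2 and Hmox1 also had ranges that did not overlap after BLM, lower in Atg5-/- cells, without being called. Nfe2l2 was at 121 to 144 FPKM against 159 to 216 FPKM (log2 fold change -0.51 ± 0.27, limma adjusted p = 0.663). It was called lower only in a fit of the compared groups alone. Hmox1 was at 67.1 to 84.2 FPKM against 86.1 to 103 FPKM (log2 fold change -0.33 ± 0.2, limma adjusted p = 0.716). Txnrd1 was at 32.5 to 47.3 FPKM against 46.3 to 79.1 FPKM, a narrow overlap, with a log2 fold change of -0.47 ± 0.207 that fell just short of the fold minimum. It was called lower in 4 settings that left out 1 library, at -0.53 to -0.62. Keap1, Mafg, Gclc and Gclm overlapped, with log2 fold changes of 0.0287, 0.0886, 0.50 and -0.37.

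The order of the 4 groups therefore differed from gene to gene. For Nqo1 it was AT2-BLM (24.4 FPKM on average), Atg5-/- AT2-PBS (14.8), Atg5-/- AT2-BLM (9.76) and AT2-PBS (2.47), and of these neighbours only AT2-BLM and Atg5-/- AT2-PBS overlapped. For Srxn1, AT2-BLM (97.2 FPKM) stood clear of Atg5-/- AT2-BLM (36.1), Atg5-/- AT2-PBS (33.7) and AT2-PBS (22.5), and these last 3 overlapped as neighbours. For Nfe2l2, AT2-BLM (193 FPKM) stood clear of Atg5-/- AT2-BLM (134), followed with overlaps by AT2-PBS (114) and Atg5-/- AT2-PBS (86.1). For Keap1, Mafg, Gclc, Gclm and Slc7a11 every neighbouring pair of groups overlapped.

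Across the 12 libraries the target genes did not all move as 1 group. Txnrd1 and Srxn1 were the most alike pair of members, with a Pearson r of 0.95 on log2(FPKM + 1), and Mafg and Gclc followed with 0.87. Once group means were taken off the order was reversed, with 0.92 for Mafg and Gclc and 0.84 for Txnrd1 and Srxn1. Gclc had r of -0.0167 with Txnrd1, 0.0772 with Srxn1 and 0.14 with Nqo1, and its high libraries, AT2-PBS replicate 3 and Atg5-/- AT2-BLM replicate 2, were also those with the highest Mafg, at 3.93 and 4.47 FPKM. Nfe2l2 was nearer to Hmox1 (0.77) than to Nqo1 (0.22). These are descriptions over 12 libraries that share 4 group means and library-wide differences.

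The ratio of the ligase subunits also varied between libraries. Gclc exceeded Gclm in all 12 libraries, by 1.61 times in AT2-PBS replicate 2 and by 11.1 times in Atg5-/- AT2-BLM replicate 2. The ratio was 5.42, 1.61 and 7.28 in AT2-PBS, 7.32, 3.42 and 2.14 in AT2-BLM, 4.15, 4.66 and 5.2 in Atg5-/- AT2-PBS and 7.29, 11.1 and 4.48 in Atg5-/- AT2-BLM. It was steadiest in Atg5-/- AT2-PBS and spread over most of its range in the others.

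Of all tested genes, those with the pattern most like Nqo1 over the 12 libraries were Gpx2 (r = 0.95), C1d (0.94) and Taldo1 (0.94). Gpx2 encodes an epithelial glutathione peroxidase and Taldo1 a transaldolase of the pentose phosphate pathway. For Txnrd1 they were Hspa9 (0.97), G6pdx (0.96) and Fez2 (0.96), and for Srxn1 Eif4a1 (0.97), Slc39a11 (0.97) and Gss (0.96), G6pdx being the first enzyme of the pentose phosphate pathway and Gss glutathione synthetase. Nfe2l2 was nearest to D2Wsu81e (0.94), Rbmxl1 (0.93) and Bag3 (0.92), and Hmox1 to Rcan1 (0.94), Hspb8 (0.93) and Kdelr1 (0.92). For Gclc they were Zdhhc18 (0.96), Abhd17c (0.92) and Dnaaf5 (0.91), for Gclm Ube2j2 (0.94), Timp2 (0.90) and Mpp6 (0.89), for Keap1 Ccdc92 (0.94), Ikbkap (0.94) and Tyro3 (0.93), and for Mafg Dlgap4, Ccdc174 and Fuom (0.92 each).

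Beyond the members, 7 lists of pathway genes held 99 tested genes, each counted once. With BLM in Atg5f/f cells 36 were called higher and 5 lower, with a median log2 fold change of 0.40 against 0.17 for all genes. Scaling moved this split: quantile normalization gave 28 higher and 12 lower, median-ratio scaling 29 and 8, and scaling to Cdh1 18 and 11. Of the genes named below, Pgd, Gpx1, Gsr, Blvrb, Fth1 and Sqstm1 lost their calls under scaling to Cdh1 and in no other setting run. The background shares of 20.6% higher and 7.77% lower given above apply to each list.

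NADPH is the electron source of both thioredoxin and glutathione reduction. In the NADPH supply list 6 of 10 tested were called higher and none lower. That list also takes in pentose phosphate enzymes such as Taldo1 that do not make NADPH themselves. Taldo1 rose by a log2 fold change of 1.24 (limma adjusted p = 0.00398), G6pdx by 1.06 (0.00795), Pgd by 0.76 (0.0119), Me1 by 0.62 (0.078) and the mitochondrial folate enzyme Mthfd2 by 1.4 (0.0215). Me1 lost its call under 5 alternatives, quantile normalization among them.

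In the glutathione and cystine list 8 of 16 were called higher and 1 lower. Gpx2 rose by 2.24 (limma adjusted p = 0.00109), the synthetase Gss by 1.17 (0.00944), the peroxidase Gpx1 by 0.94 (0.0242) and the reductase Gsr by 0.89 (0.0132), whereas Ggt5, a gamma-glutamyltransferase that acts outside the cell, was lower by -1.03 (0.108) and lost its call in a fit of the compared groups alone and without AT2-PBS replicate 1, AT2-PBS replicate 2 or AT2-BLM replicate 3. Slc3a2, the partner chain of Slc7a11, had 0.57 and was not called, except without AT2-PBS replicate 1.

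Of 14 thioredoxin and peroxiredoxin genes 3 were called higher and 1 lower, close to the share of all genes. Prdx6, a peroxiredoxin of the alveolar epithelium, rose by 1.27 (limma adjusted p = 0.00676), mitochondrial Prdx3 by 0.99 (0.00615) and the sestrin gene Sesn2 by 1.12 (0.00978), and Txnrd3 fell by 1.16 on the log2 scale (0.0102). Of 9 iron and heme genes 4 were called higher: the biliverdin reductase Blvrb (0.95, adjusted p = 0.0234), the ferritin chains Fth1 (0.91, 0.0123) and Ftl1 (0.64, 0.0459) and the heme transporter Slc48a1 (0.52, 0.0445) in limma. Ftl1 and Slc48a1 lost their calls under quantile normalization, median-ratio scaling and scaling to Cdh1, Ftl1 also without the filter on low values and Slc48a1 without AT2-PBS replicate 1 or AT2-BLM replicate 3.

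Detoxification and export genes were called higher for 9 of 26 and lower for 1, the catalase gene Cat. The carbonyl reductase Cbr3 rose by 2.73 (limma adjusted p = 0.00156), the aldo-keto reductase Akr1b8 by 2.08 (0.00161), the microsomal epoxide hydrolase Ephx1 by 1.54 (0.00109) and the prostaglandin reductase Ptgr1 by 1.52 (0.00355). Cbr3, the highest of them, had a log2 fold change as large as that of Nqo1.

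Partners and regulators were called higher for only 2 of 14, below the share of all genes, with a median of -0.0738. These were Sqstm1 (0.82, adjusted p = 0.0476) and Dpp3 (0.89, adjusted p = 0.00752) in limma, and both encode proteins that can bind KEAP1 in place of NRF2. Bach1, a repressor at the same elements, had a log2 fold change of -0.0919, Cul3 of -0.28, Mafk of 0.21, Gsk3a of -0.60 and the coactivator gene Crebbp of -0.47, none called. Crebbp was called lower in 6 alternative settings, the 3 scalings among them at -0.60 to -0.64, and Gsk3a in 3, quantile normalization among them.

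ATF4 targets, a stress program that shares genes with NRF2, were called higher for 6 of 14 and lower for 2. Psat1 and Phgdh of serine synthesis rose by 1.4 (limma adjusted p = 0.0116) and 1.30 (0.0298). The 2 called lower were the transcription factors Atf4 and Atf3, the latter with -1.76 (0.128), whose call was lost in 6 alternative settings.

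**Figure D5:**
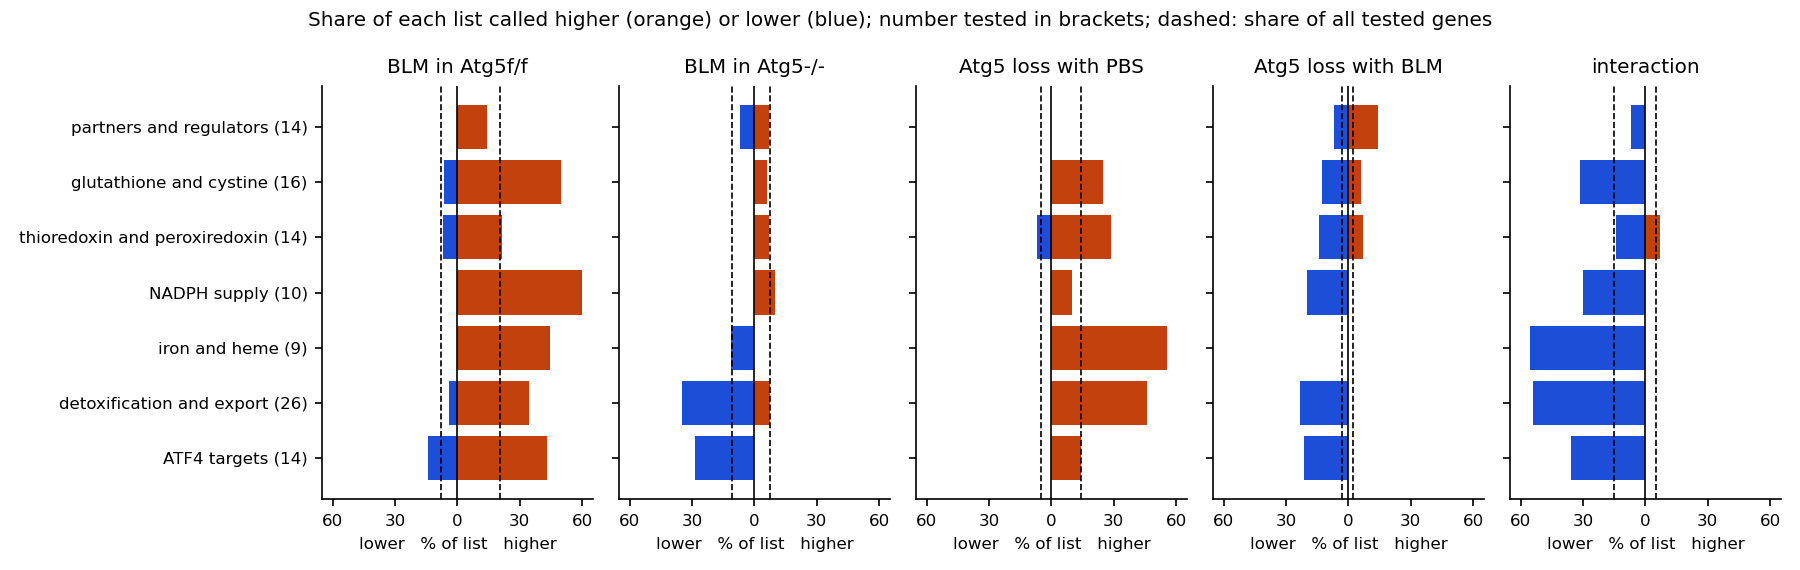
Share of each list's tested genes called higher (right) or lower (left) in the 4 comparisons and the interaction, in percent, with the number tested in brackets and the share of all tested genes as dashed lines. Bars to the right passed the line for 6 of 7 lists with BLM in Atg5f/f cells and for 5 of 7 with loss of Atg5 and PBS. Bars to the left passed it for 5 of 7 in the interaction and for 6 of 7 with loss of Atg5 after BLM, where it lay at 3.12%.

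With BLM in Atg5-/- cells, of the 99 tested 6 were called higher and 15 lower, beside 7.66% and 10.7% of all genes, and under Cdh1 scaling 0 were higher and 31 lower. Most markers of leukocytes, airway, fibroblasts and liver were called lower in this comparison as well, as given above, and their part was not tested. For the interaction, 34 of 99 were called below 0 and 1, Txnrd3, above it, beside 15.2% and 5.02% of all genes. The median was -0.52 against -0.0906 for all genes. The split was 27 and 4 after quantile normalization. Markers of other cells called below 0 in the interaction are given above, and their part was not tested here either. Detoxification and export gave 14 of these 34, glutathione and cystine 5, iron and heme 5 and ATF4 targets 5, and among partners and regulators Sqstm1 was the only one called.

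With PBS, 28 of the 99 were called higher in Atg5-/- cells than in Atg5f/f cells and 1, Txnrd3, lower, beside 14.1% of all genes higher and 5.16% lower. Quantile normalization gave 19 higher and scaling to Cdh1 46. Detoxification and export (12 of 26) and iron and heme (5 of 9) had the most, and partners and regulators none of 14. This comparison shares its AT2-PBS libraries with that of BLM in Atg5f/f cells. The detoxification genes with the largest change were the retinal dehydrogenase Aldh1a1 (2.47, limma adjusted p = 0.000858), the cytochrome Cyp2a5 (2.24, 0.00016), the glutathione transferase Gsta3 (1.85, 3.73e-05) and the glucuronosyltransferase Ugt1a7c (1.60, 0.00166). In AT2-PBS Cyp2a5 was at 0 to 0.541 FPKM and Ugt1a7c at no more than 0.228 FPKM. Their values therefore depend on the pseudocount, with 4.08 and 3.85 at a pseudocount of 0.1. In the iron and heme list Slc40a1, the iron exporter ferroportin (1.21, limma adjusted p = 0.0414), Fth1 (0.91, 0.0105), Blvra (0.87, 0.00248) and Ftl1 (0.82, 0.0169) were highest. Slc40a1 was at only 0.0122 to 0.205 FPKM in AT2-PBS and 0.91 to 2.65 FPKM in Atg5-/- AT2-PBS, so its value depends on the pseudocount (2.94 with a pseudocount of 0.1). Slc40a1 and Ftl1 lost their calls under quantile normalization, at 0.72 and 0.36. The leukocyte, airway, liver and fibroblast markers given above moved with both lists, and their part was not tested. With BLM, 4 of 99 were called higher and 15 lower in Atg5-/- cells, beside 2.04% and 3.12% of all genes. Without AT2-BLM replicate 3 only 4 were called lower. After scaling to Cdh1 this split was 6 higher and 2 lower.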

How the data were processed

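RNA of sorted AT2 cells was sequenced in 4 groups of 3, given by the titles and the genotype and treatment labels. The authors deposited 1 table of FPKM values per gene. Their methods name Trimmomatic, STAR, Cufflinks and mm9, while the submitters' processing notes list Trimmomatic 0.36, HISAT2 2.2.1.0, Cufflinks 2.2.1 and HTSeq 0.9.1. Which aligner made the table, and whether the DESeq normalization named in the methods entered it, is not given in the sources used here. The table holds no counts, so the depth behind each value is unknown and no counting interval is given. An FPKM is relative to the library's total, so a library dominated by few genes lowers the others.

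Values were tested as log2(FPKM + 1) with limma 3.58.1 in R 4.3.3, 1 fit of 4 group means to 12 samples with a trended prior, over 10675 genes that reached FPKM 1 in 3 or more samples. The pseudocount makes fold changes of low genes too small. A gene was called at p under 0.05 and fold of at least 1.4, with Benjamini-Hochberg adjusted p over all tested genes. The labels do not say that replicates are separate animals, so p-values measure the spread between these samples. With 3 against 3 an exact permutation test of 1 gene cannot go below p = 0.1, so none was run. The script was tested on simulated data. The AT2-PBS column numbered 4 was taken as the replicate titled 3.

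The 10 members, the 7 lists and the markers were chosen with earlier results of these data known. Named were all members, Atg5, the 4 genes of a list with the largest change in a comparison described by names, 8 regulators and enzymes always (Sqstm1, Bach1, Cul3, Mafk, Slc3a2, Gsr, G6pdx and Me1), and the 3 genes most alike to each member. Genes called in groups of 5 or fewer were also named after their values were seen. Alternatives were a pseudocount of 0.1, no filter (17615 genes), quantile normalization, scaling by median ratios or to Cdh1, a fit of the compared groups alone, a replicate block, no trend, adjusted p, a fold of at least 2 and leaving out each replicate. Promoter sequences are RefSeq's, of GRCm38.p6, and gene positions are from GENCODE's mm9 annotation.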

Additional observations from a re-analysis of the deposited data

Results flagged for a closer look

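Each value here is the BLM effect in Atg5-/- cells minus that in Atg5f/f cells, on the log2(FPKM + 1) scale, for genes whose effects differed between the genotypes in the limma interaction at p under 0.05 and a fold of at least 1.4. Of all tested genes 15.2% were called below 0 in this way and 5.02% above it. Of the 9 members tested these were Nqo1 with -3.27, Srxn1 with -1.89 and Txnrd1 with -0.85, the last not passing adjustment (limma adjusted p = 0.109). For Nqo1 both arms contributed, 2.18 higher in Atg5-/- cells with PBS and -1.09 with BLM.

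Among list genes named in the report, the glutathione enzymes gave -2.61 for Gpx2, -1.02 for Gss, -1.01 for Gsr and -0.85 for Gpx1. The NADPH supply list gave -1.5 for Taldo1, -1.02 for G6pdx and -0.69 for Pgd. Detoxification genes gave -3.40 for Aldh1a1, -2.22 for Gsta3, -2.12 for Cbr3, -1.91 for Cyp2a5, -1.48 for Ugt1a7c, -1.16 for Ephx1 and -1.14 for Akr1b8. Iron and heme genes lay close together, with -1.21 for Blvra, -1.14 for Fth1, -1.10 for Blvrb, -1.10 for Slc40a1 and -1.05 for Ftl1. The serine synthesis genes Phgdh and Psat1 gave -3.03 and -1.17, the peroxiredoxin Prdx6 -1.34, Sesn2 -1.12 and the KEAP1-binding receptor Sqstm1 -0.95. Txnrd3, the thioredoxin reductase best known from testis, was the 1 gene above 0, with 0.82. A limma adjusted p under 0.05 was not reached by Gss, Gsr, Gpx1, G6pdx, Pgd, Akr1b8, Blvrb, Slc40a1, Psat1, Sesn2, Sqstm1 or Txnrd3. The other list genes named here passed it. All 16 leukocyte and macrophage markers were called below 0 in the same interaction. So were 6 of 6 liver, 5 of 5 fibroblast, 3 of 5 AT1 and 2 of 4 airway markers. AT2 markers were called above 0 for 3 of 10 and below for 1. The part of all these cells in these values was not tested.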

How the results depend on the processing

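For BLM in Atg5f/f cells 5 members were called, and 3 under Cdh1 scaling, by adjusted p or at a fold of at least 2 (3 to 5 with 1 library left out, lowest without AT2-PBS replicate 2). For BLM in Atg5-/- cells 1 was called, 0 under median-ratio scaling, by limma's adjusted p (2 at an unadjusted p under 0.05) or at a fold of at least 2, 2 with only the compared groups, 1 under Cdh1 scaling, which was Nqo1 and not Nfe2l2, and 0 to 1 with 1 library left out. For loss of Atg5 with PBS 1 was called, 3 under Cdh1 scaling, and 1 to 2 with 1 library left out. For loss with BLM 2 were called, 0 by limma's adjusted p (3 at an unadjusted p under 0.05). The 3 interaction calls stayed within 1.5 times in each setting. The cause of these changes was not tested, beyond the stricter thresholds. Over 720 member values 638 kept direction and call, 13 gained and 16 lost a call in the same direction, and 53 changed sign. None of these 53 had been called in the results above. Gclc for loss of Atg5 with PBS was among them. It was called once its sign had changed, at 0.85 with AT2-PBS replicate 3 and Atg5-/- AT2-BLM replicate 2 both left out.

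Scaling moved the median log2 change of all genes from 0.0633 to -0.32 (Cdh1) for BLM in Atg5-/- cells, from 0.0188 to -0.17 (quantile) and 0.34 (Cdh1) for loss with PBS, from -0.0488 to 0.0927 (Cdh1) for loss with BLM, and from -0.0906 to 0.15 (quantile) and -0.27 (Cdh1) for the interaction. Among sign changes with BLM in Atg5f/f cells, Gclc had -0.0463 under quantile normalization, -0.0162 under median-ratio scaling, -0.0807 under Cdh1 scaling and -0.45 to 1.02 with 1 library left out. Gclm had -0.39 to 0.67, Bach1 -0.27 to 0.0637 and Mafk -0.0547 to 0.60 with 1 left out, and Mafk -0.00243 under quantile and -0.0159 under Cdh1 scaling. With BLM in Atg5-/- cells, Cdh1 scaling gave Keap1 -0.0538, Mafg -0.26, Hmox1 -0.32, Gclm -0.32, Txnrd1 -0.28 and Srxn1 -0.34, and leaving 1 out gave Mafg -0.0601 to 0.16, Gclm -0.24 to 0.36 and Srxn1 -0.0467 to 0.22. For loss with PBS, Cdh1 scaling gave Nfe2l2 0.0578, Keap1 0.25, Gclc 0.37 and Gclm 0.14, quantile normalization gave Hmox1 -0.00319, and leaving 1 out gave Hmox1 -0.0689 to 0.33, Gclc -0.62 to 0.85 and Gclm -0.62 to 0.20. For loss with BLM, leaving 1 out gave Keap1 -0.0771 to 0.14, Mafg -0.0584 to 0.19, Gclc -0.15 to 0.84 and Gclm -0.81 to 0.25. For the interaction, quantile normalization gave Nfe2l2 0.0515, Mafg 0.0652 and Gclm 0.0315, Cdh1 scaling gave Keap1 -0.0618, and leaving 1 out gave Nfe2l2 -0.50 to 0.14, Mafg -0.38 to 0.0383, Gclc -0.35 to 1.13 and Gclm -0.60 to 0.46.

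After seeing the data, AT2-PBS replicate 3 and Atg5-/- AT2-BLM replicate 2, the libraries high in Gclc, were left out together. Gclc then had 1.02 for BLM in Atg5f/f cells and 0.85 for loss with PBS, both now called. It had -0.15 for loss with BLM and -1.0 for the interaction. Mafg had -0.0601 and Gclm -0.24 for BLM in Atg5-/- cells, Gclm 0.20 for loss with PBS, Mafg -0.0584 for loss with BLM and Mafk -0.0191 for BLM in Atg5f/f cells. Members called numbered 0 for BLM in Atg5-/- cells and 2 for loss with PBS.

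Same-numbered replicates did not deviate together: correlations over 18 pairs ran from -0.295 to 0.227, and samples correlated best with their own number in 11 of 36 checks, so the numbers were not used to pair samples. With a replicate block the calls of the 9 members were unchanged in the 4 comparisons and the interaction, with 5, 1, 1, 2 and 3 called, and the adjusted p of Srxn1 in the interaction went from 0.0396 to 0.0613 (limma). With 3 libraries a group and unknown depth, low genes such as Mafg and Slc7a11 give the least firm values.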

Other observations

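Once group means were taken off, the likeness of members to other genes describes how libraries of 1 group differ. Gclc was then nearest to Mgat4b, Ybx3 and Stk39 (r = 0.98 each) and Mafg to Vegfb (0.98), Pkig (0.97) and Furin (0.96). Hmox1 was nearest to Sertad1, Ier5 and Fosl1 (0.96 each), the latter pair immediate-early response genes, and Nfe2l2 to Dcps (0.98), Bag3 (0.94), a co-chaperone gene of the heat-shock response, and C330021F23Rik (0.93). Gclm was nearest to Psip1 (0.98), Fbxw8 (0.97) and the glutathione reductase gene Gsr (0.97). Srxn1 was nearest to Mtmr2 (0.96), Dnajc5 (0.95) and Rbm3 (0.94), Txnrd1 to Nudt16 (0.96), Amd1 (0.95) and Lmo7 (0.95), Nqo1 to Ces1g (0.95), Ppa2 (0.92) and Eif4g3 (0.92), and Keap1 to Noc2l (0.96), Tmem144 (0.95) and S1pr2 (0.94). These are descriptions over 12 libraries, chosen as the highest of all tested genes.

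AT2-BLM replicate 3 was the highest of the 12 libraries for Nqo1, Srxn1, Txnrd1, Hmox1, Gclm and Keap1, at 42.8, 163, 79.1, 103, 22.5 and 21.6 FPKM, and the lowest of its group for Nfe2l2, at 159 FPKM. It also had the lowest Sftpa1, at 4967 FPKM, and the highest value of each of the 5 AT1 markers, at 1882 FPKM for Ager, 1453 for Aqp5, 62.5 for Pdpn, 38.5 for Cav1 and 24.2 for Hopx.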
